A study of Sus scrofa with 6 samples.

Results

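PTER is the gene of the phosphotriesterase-related protein, and it is described here in pig oocytes taken before maturation or after it in culture. It was chosen because it had the largest measured decrease of the series, so its levels are given as a description with no test. Its probe was found by gene symbol in the array's annotation, and 1 of 12258 probes, for 1 of 9827 named genes, carried the symbol PTER alone. Each of 6 arrays held RNA of a pool of 50 oocytes of pubertal crossbred Landrace gilts, graded by the look of their ooplasm. The 3 pools before maturation are titled as in vivo oocytes and were not cultured, per the descriptions. The 3 pools after maturation came from cumulus-oocyte complexes kept for 44 h at 38 °C under 5% CO2, in TCM-199 medium with 10% porcine follicular fluid, hCG and eCG at 2.5 IU/ml each, BSA, pyruvate and cysteine. Culture and its supplements therefore cannot be told apart from maturation itself. The series' design text also speaks of a dye test that split the oocytes, which the labels of single pools do not assign. Removal of the cumulus cells before RNA extraction is not given in the sources used here.

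PTER belongs to the amidohydrolase superfamily of metal-dependent hydrolases and takes its name from bacterial enzymes that cleave phosphotriesters such as organophosphate pesticides. In mammals the enzyme splits N-acetyltaurine into taurine and acetate. Taurine and its precursor hypotaurine are abundant amino acids of the fluids of the female reproductive tract, where they act as osmolytes and antioxidants. Their part in the handling of oocytes and early embryos made both of them common additions to culture media. Cumulus cells, the somatic cells that enclose the oocyte, feed it amino acids and other small molecules through gap junctions.

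PTER was bright in every array before maturation and dim in every array after it. Before maturation its log2 expression level was 9.07 in replicate 1, 9.01 in replicate 2 and 9.82 in replicate 3. After maturation it was 3.87, 4.07 and 4.001 in replicates 1, 2 and 3. The groups did not overlap, and the lowest array before maturation lay 4.94 above the highest array after it on the log2 scale, which is 30.8-fold. Over the groups the level went from 9.30 ± 0.45 (SD, n = 3) to 3.98 ± 0.10 (SD, n = 3). The difference after minus before was -5.32 with a standard error of 0.20, a measured level 39.9-fold lower.

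**Figure D1:**
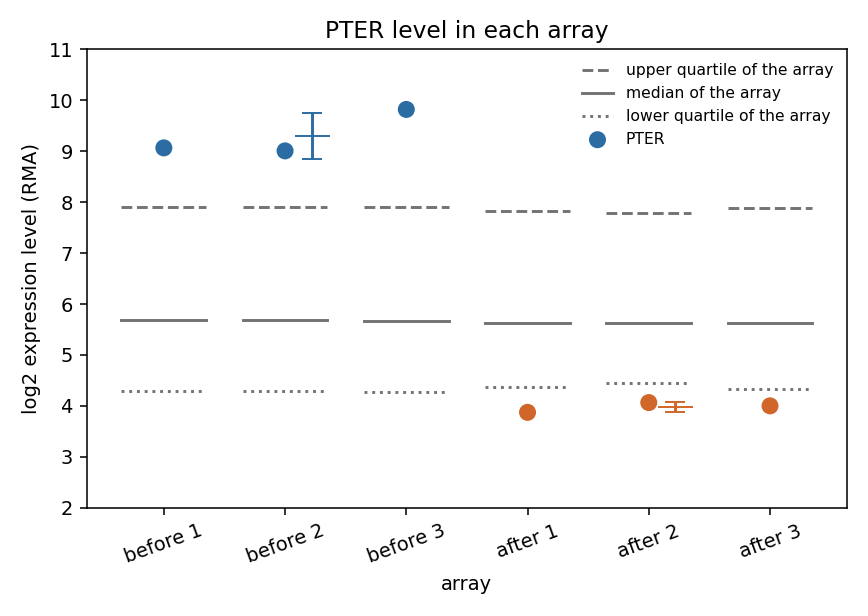
Log2 expression level of PTER (vertical axis) in each of the 6 arrays (horizontal axis), with the mean and SD of each group of 3 arrays beside the points and the quartiles of all 12258 probes of each array as grey lines. The 3 arrays before maturation lie at 9.01 to 9.82, above the upper quartile, and the 3 arrays after it lie at 3.87 to 4.07, below the lower quartile.

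Within each array the probe moved from the bright end of the values to the dim end. Before maturation PTER was brighter than 87.3%, 86.6% and 93.5% of the probes of replicates 1, 2 and 3. After maturation it was brighter than 13.7%, 16.9% and 17.6% of them. Probes differ in affinity, so these ranks say where the signal lay on the array and not how abundant the transcript was against others. Lower quartiles after maturation were 4.37, 4.45 and 4.33, and each of these arrays held 1683 to 2154 probes dimmer than PTER. Detection calls were not analysed here, so the fold change after such a fall is a measured value, and the true one can be larger. Of all probes 2787 lay above the upper quartile of every array before maturation and 2715 below the lower quartile of every array after it. PTER and CD55 were the 2 probes that met both conditions, and 0 probes made the opposite move. This count was chosen after the values were seen.

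The arrays before maturation differed more in PTER than in most probes. The SD of 0.45 before maturation exceeded that of 97.4% of all probes, whose median SD was 0.13. The SD of 0.10 after maturation exceeded that of 39.7%, beside a median of 0.12. The spread before maturation came from replicate 3, which lay 0.78 above the mean of replicates 1 and 2, while these 2 arrays differed by 0.06. Only 1.13% of all probes (139) stood at least that far above the other arrays in replicate 3, and the median probe lay at -0.03. Taken by replicate number, PTER changed by -5.19, -4.94 and -5.82 in replicates 1, 2 and 3, and without replicate 3 before maturation the difference was -5.06.

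Replicate 3 before maturation was also the highest array for many other transcripts that were lower after maturation. Among the 989 probes called lower by limma, 65.3% had their highest value before maturation in replicate 3, against 32.0% of all probes. Among the 95 of these with a difference of -2 or below the share was 81.1%, or 77 probes. PTER thus had its highest array where most of the larger decreases had theirs. These shares describe the 3 arrays, since the probes were selected on the same values.

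The next largest decrease was that of CD55, which encodes a membrane regulator that restrains complement, and its profile was the closest to that of PTER. CD55 had log2 levels of 8.87, 8.87 and 9.38 before maturation and 4.18, 4.25 and 3.99 after it, in replicates 1, 2 and 3. Like PTER it was alike in replicates 1 and 2 and higher in replicate 3 before maturation, by 0.51. The difference was -4.90 with a standard error of 0.15, so PTER and CD55 differed in size by less than the range of PTER before maturation (0.81).

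**Figure D2:**
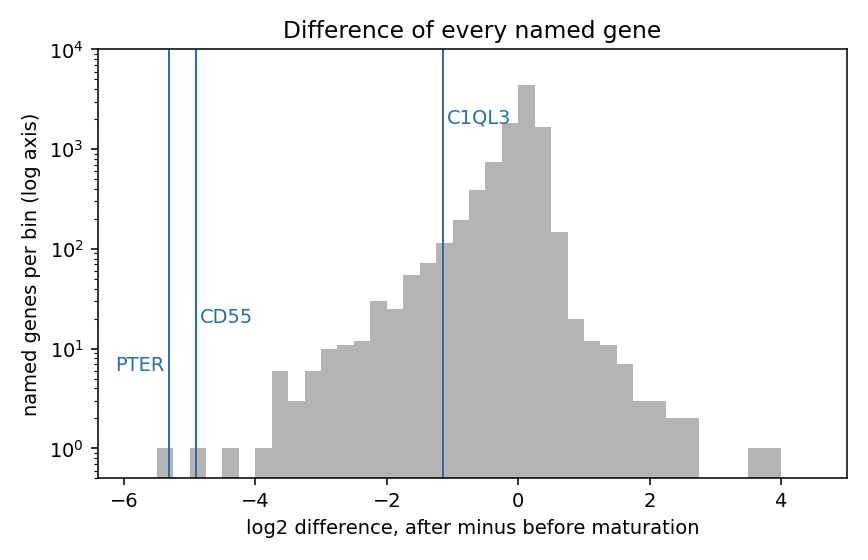
Number of named genes (vertical axis, log scale) by log2 difference after minus before maturation (horizontal axis), with bins of equal width. Blue lines mark PTER at -5.32, CD55 at -4.90 and C1QL3, the nearest annotated gene on one side of PTER, at -1.15.

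The profiles most like that of PTER were sought by the root mean square distance over the 6 arrays, after each of 9827 named genes was centred on its own mean. The 10 nearest were CD55 (distance 0.245), HSD17B1 (0.546), ID2 (0.717), RASL11B (0.832), ITM2A (0.868), BTG2 (0.873), EDA (0.887), ESR1 (0.903), CYR61 (0.931) and HDC (0.983), all on the log2 scale. Their products are varied. HSD17B1 makes oestradiol in granulosa cells, ESR1 is the oestrogen receptor alpha, HDC makes histamine from histidine, and EDA is a ligand of the tumour necrosis factor family. ID2 inhibits DNA binding by helix-loop-helix factors, BTG2 is antiproliferative, CYR61 is a matrix-associated signalling protein and RASL11B is a RAS-like GTPase. Of the 10, HSD17B1 and ESR1 are also among the cumulus and granulosa markers described further on.

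The choice by distance fixes that these 10 genes have a large step between the groups. Their differences ran from -4.90 for CD55 to -3.37 for HDC, so the distance mainly followed the size of the decrease. HDC, for example, had levels of 8.27, 8.52 and 8.93 before maturation and 5.08, 5.38 and 5.14 after it. Replicate 3 was the highest array before maturation for 7 of the 10, beside 81.1% of all probes called lower with a difference of -2 or below, and replicate 1 for ID2, BTG2 and CYR61. ESR1 differed between all 3 arrays before maturation, at 7.09, 7.67 and 8.27, unlike PTER, whose replicates 1 and 2 were level.

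**Figure D3:**
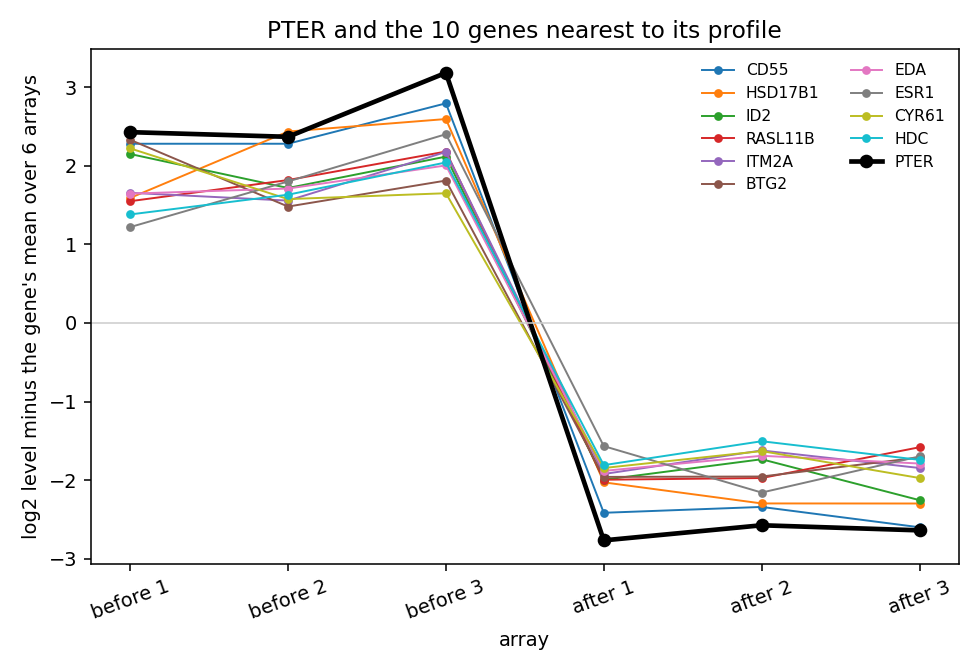
Log2 level minus the gene's own mean over the 6 arrays (vertical axis) for PTER (black) and the 10 nearest genes (colours), by array (horizontal axis). All lines drop between the groups, PTER has the highest value before maturation in replicate 3 and the lowest after it, and CD55 runs closest to it.

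Pearson's correlation over the 6 arrays, which ignores the size of a change, gave a different order. Between PTER and the 10 nearest genes it ran from 0.984 for CYR61 to 0.999 for ITM2A. It was at least 0.95 for 389 genes and at least 0.99 for 67, since any gene with a step between the groups correlates with PTER, and it is a description of 6 points in 2 clusters. Of the 10 genes with the highest correlation 4 were among the nearest by distance, namely ITM2A, EDA, CD55 and HDC. CDKN3, a phosphatase gene of the cell cycle, had a correlation of 0.999 with a difference of only -0.30, and was named after its values were seen.

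The measured genes of taurine and hypotaurine metabolism and transport did not share the fall of PTER, and the lowest difference among them was -0.42. Before maturation FMO1, GAD2 and GADL1 were already at mean levels of 3.84, 3.92 and 4.11. Little further fall can be measured from there, as PTER lay at 3.98 after maturation. SLC16A6, LRRC8E, ADO, LRRC8A and SLC36A1 started at 4.57 to 6.67. The dimmest probe of each array lay at 2.69 to 2.78, so a fall of 5.32 was out of their reach as well. Only CDO1, LRRC8B and LRRC8D, at 11.38, 8.62 and 9.55, were bright enough to show such a fall. Of 17 listed genes 11 were measured, with 3 called higher, 1 called lower and 7 not called (limma, adjusted p under 0.05). Over all probes 3.21% were called higher and 8.07% lower, against 27.3% and 9.09% of the list. The median difference of the list was 0.20, that of all probes 0.08. With each array shifted so that ribosomal protein genes stayed level, a scaling that moves the median of all probes from 0.08 to 0.62, 8 of the 11 were called higher and 0 lower, where 76.6% of all probes were called higher and 3.39% lower.

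The enzymes came first in this list. FMO1, a flavin-containing monooxygenase that oxidises hypotaurine to taurine, had log2 levels of 3.99, 3.79 and 3.74 before maturation and 4.74, 4.51 and 5.05 after it. The arrays after maturation were all higher, and the difference was 0.93 with a standard error of 0.15 (limma adjusted p = 0.00532). FMO1 lay below the lower quartile of each array before maturation (4.27 to 4.30), so its 1.90-fold rise is a measured value. CDO1, the cysteine dioxygenase at the head of taurine synthesis, was bright and overlapped between the groups, with levels of 11.25, 11.42 and 11.47 before and 11.36, 11.34 and 11.41 after. Its difference was -0.01 with a standard error of 0.09 (limma adjusted p = 0.964), and it turned to 0.05 with a common median and to 0.53 with ribosomal protein genes held level. ADO, which oxidises cysteamine to hypotaurine, differed by -0.11, and the decarboxylase genes GADL1 and GAD2 by 0.07 and 0.23, with none of the 3 called.

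The channel and transporter genes held the remaining calls. LRRC8B, a subunit of the volume-regulated anion channel through which cells release taurine, rose by 0.57, from 8.70, 8.61 and 8.56 to 9.35, 9.11 and 9.12 (standard error 0.10, limma adjusted p = 0.00998). The arrays of the groups did not overlap. LRRC8D, another subunit, rose by 0.35, from 9.59, 9.54 and 9.52 to 9.81, 10.004 and 9.91 (standard error 0.09, limma adjusted p = 0.0435). LRRC8A, the subunit that every such channel needs, and LRRC8E had differences of 0.35 and 0.20 and were not called. LRRC8A had a second probe with a difference of 0.03.

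SLC36A1, a proton-coupled carrier of small amino acids, fell by 0.42, from 6.61, 6.63 and 6.76 to 6.16, 6.29 and 6.30 (standard error 0.09, limma adjusted p = 0.0250), and SLC16A6 differed by -0.33 and was not called. With the replicate number as a block LRRC8D was not called (limma adjusted p = 0.0547), with cyclic loess its adjusted p was 0.0706, and leaving out any 1 of the 6 arrays also ended its call (0.0626 to 0.134). SLC36A1 was not called without any 1 array other than replicate 1 before maturation (limma adjusted p of 0.0563 to 0.0992), and it turned to 0.13 with ribosomal protein genes held level. FMO1 and LRRC8B were called in every alternative that tested them.

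**Figure D4:**
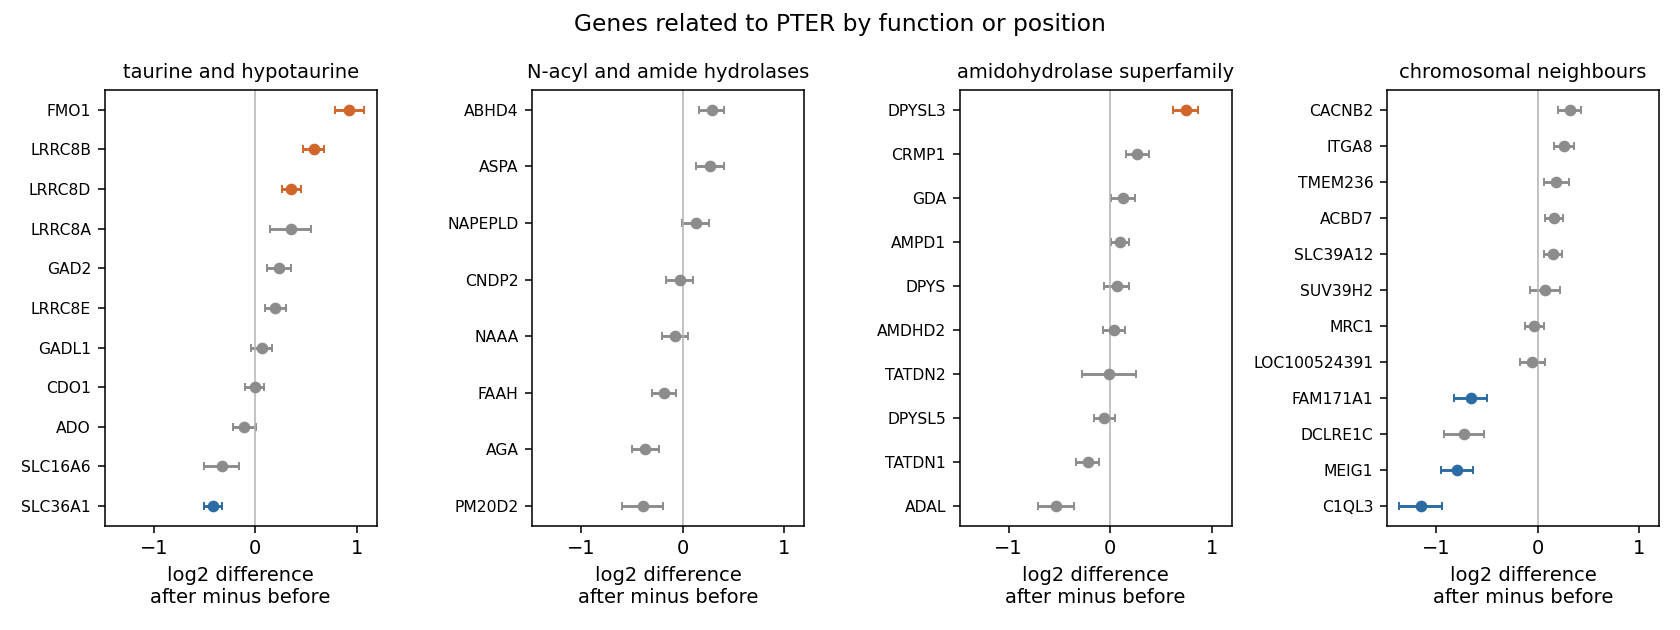
Log2 difference after minus before maturation (horizontal axis) with its standard error for the measured genes of 3 functional lists and for the chromosomal neighbours of PTER. Orange marks genes called higher and blue genes called lower by limma, and grey marks genes not called. No gene shown comes near the -5.32 of PTER, and C1QL3 at -1.15 is the lowest of them. Many of these genes were too dim before maturation for a fall of that size.

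The genes that handle acetate, the other product of N-acetyltaurine cleavage, and the genes of sulphur amino acid metabolism gave few calls. Of 14 measured genes of acetate and acetyl-CoA metabolism 1 fell and 0 rose, while at an unadjusted p under 0.05 the limma test gave 3 lower and 2 higher. The 7.14% called lower lay close to the 8.07% of all probes, of which 13.4% were lower and 15.8% higher at the unadjusted threshold. ACAT2, an acetyl-CoA acetyltransferase gene, fell by 0.94 (limma adjusted p = 0.0111). It lay at -0.40 with ribosomal protein genes held level and was not called there (limma adjusted p = 0.0737). PDHB, a pyruvate dehydrogenase subunit, had a difference of -0.56 that passed without replicate 1 before maturation (limma adjusted p = 0.0209). The acetyl-CoA synthetase genes ACSS1, ACSS2 and ACSS3, which turn free acetate into acetyl-CoA, differed by -0.21, 0.18 and 0.19 and were not called. They were picked after their values were seen.

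Of 13 measured genes of sulphur amino acid metabolism 2 fell (15.4%, beside 8.07% of all probes) and 0 rose, with 2 lower and 1 higher at an unadjusted p under 0.05 (limma). The 2 were the subunits of glutamate-cysteine ligase, which starts glutathione synthesis. GCLM fell by 1.11, from 7.76, 7.78 and 8.50 to 7.24, 6.43 and 7.03, and GCLC fell by 0.51 (limma adjusted p = 0.0264 and 0.0360). GCLM, like PTER, had its highest value in replicate 3 before maturation. Without that array 0 of the 13 were called lower, and likewise without replicate 2 after maturation, while 1 was called without replicate 2 before or replicate 1 or 3 after maturation. GCLC turned to 0.03 with ribosomal protein genes held level.

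Relatives of PTER by enzyme class gave 1 call among 18 measured genes, where 3.21% of all probes were called higher and 8.07% lower. Of 10 measured genes of the amidohydrolase superfamily 1 rose and 0 fell, with 2 higher and 1 lower at an unadjusted p under 0.05 (limma). The gene called was DPYSL3, a dihydropyrimidinase-like protein, which rose by 0.74 from 4.15, 4.19 and 4.08 to 4.95, 4.63 and 5.07 (limma adjusted p = 0.00722). It lay below the lower quartile before maturation. ADAL, an adenosine deaminase-like gene, had a difference of -0.53 (limma adjusted p = 0.0937), which turned to 0.01 with ribosomal protein genes held level. Of 8 measured genes for hydrolases of N-acyl amino acids and amides 0 were called by limma, and at an unadjusted p under 0.05 there was 1 in each direction. These were AGA, a lysosomal amidase gene, at -0.37 and ABHD4 at 0.29. With the scaling on ribosomal protein genes AGA turned to 0.17 and ABHD4 passed the test at 0.83.

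Genes that lie beside PTER on its chromosome in the RefSeq annotation of assembly Sscrofa11.1 changed less than it did, but most could not fall as far. Before maturation SUV39H2 had a mean level of 9.60, as bright as PTER, and it differed by 0.07. The other measured neighbours started at 3.13 to 7.39. The dimmest probe of each array lay at 2.69 to 2.78, so a fall of 5.32 was out of their reach. Of the 10 protein-coding genes on each side 12 were measured, and 3 fell and 0 rose, with 4 lower and 2 higher at an unadjusted p under 0.05 (limma). Over all probes 8.07% were called lower. Of the 12 neighbours 4 had all arrays after maturation below those before it and 4 had them above, where 14.4% and 21.7% of all probes did so. The median difference of the 12 was 0.02, close to the 0.08 of all probes.

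C1QL3, a complement C1q-like gene and the nearest annotated neighbour on one side, had log2 levels of 5.39, 6.22 and 6.18 before maturation and 4.90, 4.67 and 4.77 after it. It fell by 1.15 with a standard error of 0.21 (limma adjusted p = 0.0110), and replicate 1 before maturation was the lowest of its group, unlike for PTER. FAM171A1, the third gene on the other side, fell by 0.66 from 6.50, 6.09 and 6.74 to 5.62, 5.83 and 5.90 (limma adjusted p = 0.0391). The call held on leaving out replicate 2 before maturation and on no other single omission (0.0702 to 0.141). FAM171A1 was also not called after a second quantile normalization (limma adjusted p = 0.0716) or with ribosomal protein genes held level (-0.12, limma adjusted p = 0.599). MEIG1, a gene of germ cell meiosis and the eighth on that side, fell by 0.80 (limma adjusted p = 0.0169) and was named after its values were seen. The integrin gene ITGA8, the second on that side, differed by 0.26, and LOC100524391, the fifth on the side of C1QL3, by -0.05, and neither was called. Without replicate 2 after maturation 0 of the 12 were called lower (for C1QL3 limma adjusted p = 0.0582), and without replicate 1 after maturation 1 was. With ribosomal protein genes held level 1 of the 12 was called lower and 8 higher, beside 3.39% and 76.6% of all probes.

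Markers of the somatic cells around the oocyte fell in the same comparison as PTER. Of 28 cumulus and granulosa markers 19 were measured, with 12 called lower by limma, 2 called higher and 5 not called. That is 63.2% lower and 10.5% higher, beside 8.07% and 3.21% of all probes, and the median difference was -1.23, beside 0.08. SERPINE2, an inhibitor of serine proteases, fell by 2.92, the connexin gene GJA1, whose product forms gap junctions of cumulus cells, fell by 2.27, and HSD17B1 fell by 4.41. The steroid enzyme gene HSD3B1 rose by 3.95. The mean log2 level of the 19 markers was 7.54, 7.71 and 7.96 in replicates 1, 2 and 3 before maturation and 6.71, 6.60 and 6.61 after it, and the log2 of their summed level was 12.94 to 13.37 before and 12.05 to 12.11 after. As for PTER, replicate 3 was the highest array before maturation, and it was so for 13 of the 19 markers. That is 68.4%, close to the 65.3% of all probes called lower. In pooled RNA fewer cells of a type and less RNA per cell cannot be told apart, and the part of the somatic cells in the PTER difference was not tested.

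Most markers of the oocyte itself were not called. Of 21 markers 16 were measured, of which 3 fell (18.8%, beside 8.07% of all probes) and 0 rose, with 3 lower and 1 higher at an unadjusted p under 0.05 (limma). The median difference was 0.05, beside 0.08 for all probes. The receptor gene KIT fell by 1.22, and of the genes for coat glycoproteins of the oocyte ZP3 fell by 0.70 and ZP4 fell by 0.40. ZP3 lay at -0.16 with ribosomal protein genes held level and was not called (limma adjusted p = 0.494), and ZP4 turned to 0.14 there. Leaving out any 1 of the 6 arrays ended the call of ZP4 (limma adjusted p of 0.064 to 0.0972). The mean log2 level of the 16 markers was 10.15, 10.15 and 10.06 before maturation and 10.07, 9.98 and 10.04 after it, so the groups overlapped in this mean. The log2 of their summed level, which the brightest markers dominate, did not overlap, with 14.90, 14.87 and 14.80 before and 14.77, 14.71 and 14.74 after maturation. None of the 16 lay under the lower quartile of any array.

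Among markers of other cells of the follicle 19 values lay above 0 and 4 below it, where the median of all probes was itself above 0, at 0.08. Many of these markers were dim. In single arrays 2 to 4 of 11 theca and stroma, 1 to 3 of 6 endothelial and 2 to 3 of 6 leukocyte markers lay under the lower quartile. That quartile itself was 4.27 to 4.30 before and 4.33 to 4.45 after maturation. Among 11 measured markers of theca and stroma, the matrix genes POSTN and COL3A1 rose by 1.20 and 0.37 and the smooth muscle actin gene ACTA2 fell by 1.93. These calls are 18.2% higher and 9.09% lower, beside 3.21% and 8.07% of all probes, and at an unadjusted p under 0.05 limma gave 3 higher and 2 lower. Their mean level was 4.99 to 5.23 before maturation and 5.07 to 5.14 after it. Of 6 measured endothelial markers 0 were called (limma, 2 higher at an unadjusted p under 0.05), and SOX17 and KDR had differences of 0.51 and 0.23. Their mean level was 4.99 to 5.06 before and 5.19 to 5.39 after maturation. Among 6 measured leukocyte markers the T cell gene CD3E was the 1 called, higher by 0.48, while TYROBP lay at 0.41 and was not called. That is 16.7% called higher, beside 3.21% of all probes. All 6 were above 0, 5 were higher at an unadjusted p under 0.05 (limma), beside 15.8% of all probes, and 4 had all arrays after maturation above those before it, beside 21.7%. Their mean level went from 4.91 to 5.03 before to 5.23 to 5.37 after maturation. The call of POSTN ended without any 1 array other than replicate 1 before and replicate 2 after maturation (limma adjusted p of 0.0544 to 0.105). That of COL3A1 ended without any 1 other than replicate 3 after maturation (0.079 to 0.154), and that of CD3E without any 1 other than replicate 2 before it (0.0866 to 0.122). With cyclic loess COL3A1 and CD3E were not called either (limma adjusted p = 0.0968 and 0.0528). COL3A1 was also not called after a second quantile normalization (limma adjusted p = 0.0739). The part of these cells in the PTER difference was not tested.

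The comparison of the groups gave 394 probes higher and 989 lower among 12258 (limma, adjusted p under 0.05), or 11.3% called in either direction. With a common median 915 were higher and 891 lower, with a second quantile normalization 596 and 866, and with ribosomal protein genes held level 9391 and 416. Under these scalings and cyclic loess the difference of PTER lay between -5.35 and -4.78. Array medians lay between 5.62 and 5.70. The p-values rest on the spread of 3 pools per group, which the labels call biological replicates, and this number limits the precision of every value.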

How the data were processed

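The authors deposited 1 table of log2 expression values made with RMA, per the submitters' processing notes, from total RNA (100 ng per pool) amplified in 2 rounds, per the labels' protocols. RMA usually subtracts background, quantile-normalizes arrays and summarises probes. Its version, options and filters were not stated, and that the scale is log2 rests on RMA and on values of 2.69 to 12.7.

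Of 12258 probes 10922 carried 1 gene symbol (a repeated symbol counted once), 268 several and 1068 none listed, in GEO's platform annotation, with symbols updated by gene identifier to RefSeq (Sscrofa11.1). The array's build is not given in the sources used here, so no coordinates are printed. The brightest probe stood for each of 9827 named genes.

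All probes were fitted with limma 3.58.1 in R 4.3.3 (lmFit, eBayes, two-sided, Benjamini-Hochberg over all probes, threshold 0.05). The fit was tested on simulated data. Standard errors are moderated. PTER, the gene lists and the tests were chosen with earlier results of these data known. Genes were named by rule: PTER, all measured taurine genes, up to 4 called genes per list (otherwise the 2 with the smallest p), measured genes among the 5 nearest on each side of PTER, the 10 with the nearest profile and the next largest decrease. The alternatives were 4 scalings, the replicate block, leaving out the dimmest 25% of probes, trend and robust set, the mean of a gene's probes, leaving out each array, and Pearson's correlation as the measure of likeness. Same-numbered arrays deviated together from their group means (correlations of 0.283, 0.120 and 0.142, beside -0.168 to 0.019 for arrays of different number). Deviations from the mean of 3 arrays sum to 0, so this check cannot settle whether the numbers pair the arrays. The labels call them only biological replicates. The main fit left the number out, and with it as a block 621 probes were called higher and 1226 lower. Python 3.11.15, pandas 2.3.3 and matplotlib 3.10.9 served for tables and figures.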

Additional observations from a re-analysis of the deposited data

How the results depend on the processing

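PTER was chosen for its decrease and its groups lay 4.94 apart, so leaving out an array or adding the block could not turn its sign. The difference of PTER was negative in all 11 alternatives run. It lay between -5.46 and -5.06 on leaving out each array and was -5.32 with the replicate block. It was -4.78 with ribosomal protein genes held level. The nearest 10 genes kept 9 to 10 members on leaving out each array, 10 with each of 4 scalings and 4 with Pearson's correlation.

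Probes called higher numbered 915 with a common median, 596 after a second quantile normalization, 254 with cyclic loess, 9391 with ribosomal protein genes held level and 621 with the replicate block, and 103 to 434 on leaving out each array (258 and 166 without replicate 2 or 3 before, 103, 119 and 204 without replicate 1, 2 or 3 after maturation). Probes called lower numbered 416 with ribosomal protein genes held level and 531 to 1013 on leaving out each array (531 and 545 without replicate 1 or 2 after maturation). That scaling adds about the same amount to every difference by construction.

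With ribosomal protein genes held level, genes called higher numbered 8 for taurine, 8 for sulphur amino acids, 9 for acetate, 5 for N-acyl hydrolases, 8 for amidohydrolases and 8 for chromosomal neighbours, and those called lower 0 for taurine, 1 for sulphur amino acids, 0 for acetate and 1 for neighbours. Without the dimmest 25% of probes 1 taurine gene was higher and 2 acetate genes were lower. FMO1 was left out there by construction, and LRRC8D was tested but not called (limma adjusted p = 0.0511). With a common median 1 acetate gene was higher. The 1 taurine gene called lower was lost (0) after a second quantile normalization and with trend and robust set. On leaving out each array, taurine genes numbered 2 higher in each case and 0 to 1 lower, sulphur genes 0 to 2 lower, acetate genes 1 to 2 lower and neighbours 0 to 3 lower. In these lists only LRRC8A and NAPEPLD had several probes, and those of NAPEPLD had the same group means. The mean of a gene's probes could therefore hardly change a count, and it changed none by over 1.5 times.

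Of 591 values of the 46 other named genes under alternatives, 499 kept direction and side of the threshold, 57 lost a call, 16 gained one and 19 changed sign, and the cause was not tested. With ribosomal protein genes held level these turned to 0.53 for CDO1, 0.44 for ADO, 0.13 for SLC36A1, 0.21 for SLC16A6, 0.034 for GCLC, 0.17 for AGA, 0.0087 for ADAL, 0.14 for ZP4 and 0.49 for LOC100524391. CDO1 turned to 0.049 with a common median, and lay between -0.073 and 0.037 on leaving out each array, positive without replicate 2 or 3 before or replicate 2 after maturation. GADL1 turned to -0.025 after a second quantile normalization and -0.035 with cyclic loess. LOC100524391 turned to 0.0021 with a common median and 0.077 after a second quantile normalization, and lay between -0.12 and 0.051 on leaving out each array, positive without replicate 2 before or replicate 1 after maturation. The replicate block ended the call of LRRC8D (adjusted p = 0.0547), called SOX17 higher (adjusted p = 0.0369) and changed no other call of a named gene. Low signal after maturation limits the fold of PTER.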
